A study of Mus musculus with 6 samples.

Results

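The complement genes followed here are 9 genes of 23462 named on the array: the components C1qa, C2, C3, C4b and Cfb, and the inhibitors Serping1, Cfi, Cd55 and Cd59a. They were chosen by name, from the knockout-against-control values of these same arrays, and their probes were found by matching each probe's accession to the gene symbol. Their differences between knockout and control are therefore a description, and their adjusted p-values only place them in the fit across all genes. They had 15 probes, of which 13 were kept in the fit, and 8 of the 9 genes were tested among 13496.

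The study asked what loss of Arid1a, a subunit of the BAF complexes that move nucleosomes, does in crypts, the glands of the intestine in which its stem cells sit. The 3 knockout samples were crypts of Villin-Cre; Arid1a f/f mice, in which Cre recombinase made under the promoter of the epithelial gene Villin deletes the floxed alleles in the epithelium, and not by design in other cells that come with crypts. The 3 control samples were crypts of Arid1a f/f mice, which carry the floxed alleles too but no Cre, although the series design speaks of wild type intestine. The strain was given as mixed for every sample, and age, pooling and gut segment were not given in the sources used here. RNA of each sample went onto 1 one-colour Agilent array. For knockout 2 and control 3 the labels contradict each other: title and description give the groups used here, whereas source name and genotype give the opposite ones. Nothing in the labels ties each sample to an animal of its own, and the p-values therefore cover the spread of these samples alone, which may be technical.

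Complement is a cascade of plasma and tissue proteins that marks microbes and damaged cells for removal. The classical branch starts when C1q binds, its partner protease C1r activates the protease C1s, and C1s cuts C4 and C2. The alternative branch runs on C3 and factor B. Both branches build enzymes called convertases that cut C3 and lead on to the membrane attack complex. Inhibitors hold it back at each step: the C1 inhibitor made by Serping1 inactivates C1r and C1s, factor I cuts C3b and C4b, CD55 takes convertases apart, and CD59 stops the membrane attack complex from assembling. In the gut both epithelium and the cells beneath it make complement proteins, and C1q comes largely from macrophages.

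The sequence before a gene's start is shown for the pair of membrane-bound inhibitors whose signals lay on opposite sides of control in the knockout. Each covers 250 bases before to 50 bases after the start, 5' to 3' on the gene's own strand, from RefSeq on GRCm38.p6. Capitals mark a match to GAAANNGAA, the core of the interferon-stimulated response element.
Cd55, chr1:130462695-130462994, minus strand: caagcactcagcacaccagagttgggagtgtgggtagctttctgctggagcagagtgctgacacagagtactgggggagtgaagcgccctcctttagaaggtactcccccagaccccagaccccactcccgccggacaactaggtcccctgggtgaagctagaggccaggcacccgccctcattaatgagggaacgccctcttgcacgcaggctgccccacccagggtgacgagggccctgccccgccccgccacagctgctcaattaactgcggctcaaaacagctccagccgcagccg
Cd59a, chr2:104095551-104095850, plus strand: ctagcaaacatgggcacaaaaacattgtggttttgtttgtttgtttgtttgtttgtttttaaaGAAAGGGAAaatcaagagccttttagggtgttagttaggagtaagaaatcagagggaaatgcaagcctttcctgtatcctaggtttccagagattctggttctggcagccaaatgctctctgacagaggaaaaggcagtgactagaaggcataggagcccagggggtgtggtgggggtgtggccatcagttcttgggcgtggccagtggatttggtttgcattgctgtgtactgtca
The table of promoters held 3 of the 9 genes, C3, Cd55 and Cd59a. Searched on both strands with overlaps between motifs allowed, Cd59a had 1 match to GAAANNGAA, at the capitals, and Cd55 and C3 had 0. The 3 windows held 0 matches to TTCNNNGAA, the gamma-activated site of interferon gamma target genes, and 0 to the NF-kB motif. Of 32851 promoters of that length, 8.56% held GAAANNGAA, 8.30% TTCNNNGAA and 8.46% the NF-kB motif. Guanine and cytosine made up 63.3% of the Cd55 window and 45.7% of the Cd59a window, beside a median of 52.7% over all promoters.

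Signals are given as log2 of the processed intensity minus the array's 75th percentile, so that 0 is the brightness at that percentile and 1 unit is a doubling. The share of the 56605 probes well above background ran from 41.7% to 54.7% per array, and 0 spots were saturated. Levels of different probes cannot be set against each other. Controls 1 and 2 and knockouts 1 and 2 lay on slide 1, and control 3 and knockout 3 on slide 2. Arid1a itself read 3.71, 3.47 and 4.01 in controls 1 to 3 and 2.20, 2.07 and 2.51 in knockouts 1 to 3. Every knockout array, knockout 2 included, was below every control array, control 3 included, with a difference of -1.47 ± 0.21 (SE, n = 3 and 3; limma, adjusted p = 0.00733). All 10 epithelial markers looked at, among them Epcam and Vil1, passed the filter on dim probes. In these bulk samples, fewer cells of a type and less RNA per cell cannot be told apart.

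Of the 8 complement genes tested, Serping1 and Cd55 were higher in the knockout, C4b and Cd59a were lower, and C2, C3, Cfb and Cfi did not pass the threshold (limma, Benjamini-Hochberg adjusted p under 0.05, two-sided). Cd59a passed the filter on dim probes through its control arrays alone. Over all 13496 genes, 7.28% were called higher and 7.62% lower. Knockout and control arrays did not overlap for 5 of the 8 genes, 2 above and 3 below, and over all genes this share was 39.7%. Because these contrasts chose the genes, the counts are not read against those shares. The median log2 difference was -0.28 over the 8 genes and -0.01 over all genes. Among the 4 tested components 0 were higher and 1 was lower, with a median difference of -0.28. Among the 4 inhibitors 2 were higher and 1 was lower, with a median of 0.22, a median that turned to -0.35 without knockout 2 and control 3, to -0.12 without control 3 alone, to -0.0093 without knockout 2 alone and to -0.024 under scaling to the array median. The components' median turned to 0.11 with no filter on dim probes, when C1qa enters. With Cd59a, which has only a bound in the knockout, set at that bound, the medians of the 8 genes and of the inhibitors stayed at -0.28 and 0.22. They could not move, because Cd59a at its bound still lies below the genes that set them.

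**Figure D1:**
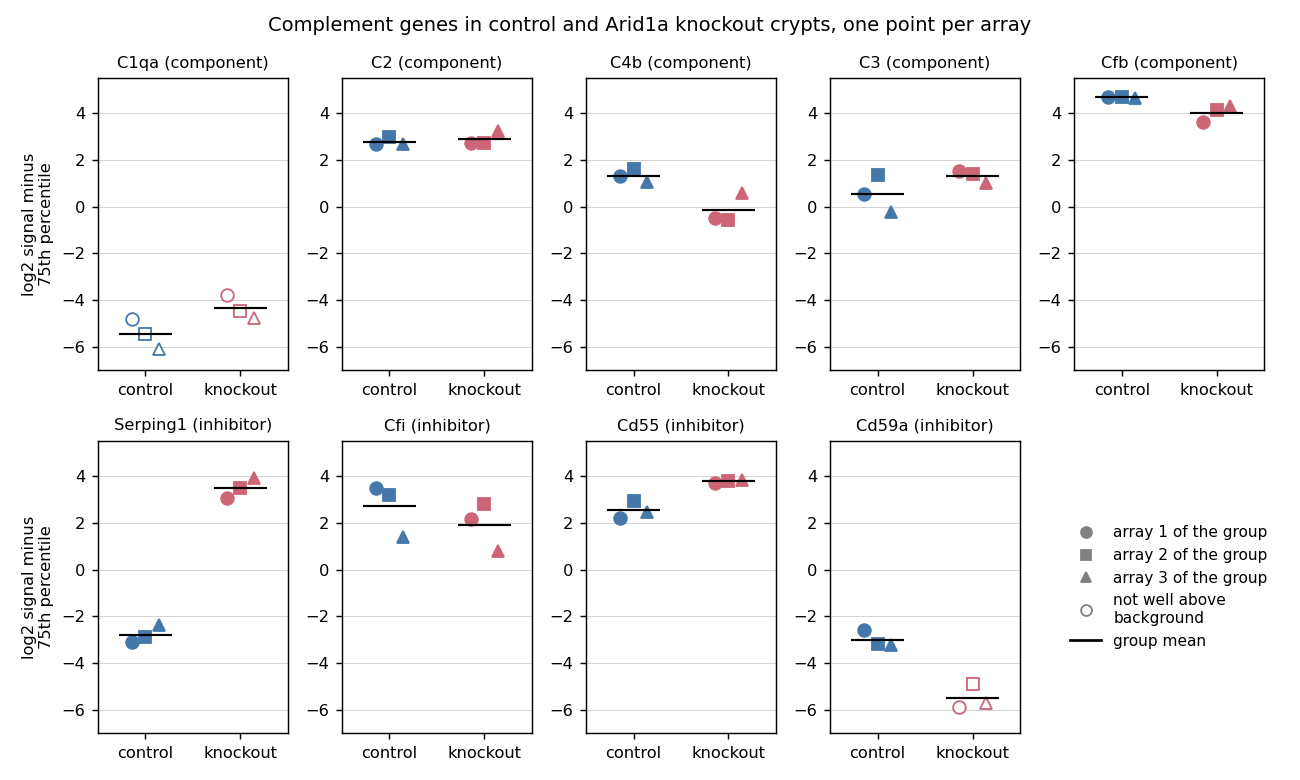
Each panel is 1 gene, with the log2 signal minus the array's 75th percentile on the vertical axis, 1 point per array and a bar at the group mean. Serping1 rises from between -3.11 and -2.37 in controls to between 3.06 and 3.90 in knockouts, while hollow points for C1qa and for Cd59a in the knockout are not well above background.

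Serping1, the inhibitor that acts first in the classical branch, had the widest gap of the 9 genes. It read -3.11, -2.87 and -2.37 in controls 1 to 3 and 3.06, 3.48 and 3.90 in knockouts 1 to 3. The groups lay far apart and each array was well above background. The control signals were dim, though: the lowest signal well above background was -3.29, -3.65 and -4.39 on controls 1 to 3. The log2 difference was 6.27 ± 0.29 (SE, n = 3 and 3), or 77.0-fold, with an adjusted p of 0.000367 by limma, and the gene ranked 3 of 13496 by signed difference. Within slide 1 the difference was 6.26 and within slide 2 it was 6.28. It stayed past the threshold in 21 of 22 alternative settings, the exception being groups taken from source name and genotype. Under normexp background correction the difference was smaller, at 4.94 (adjusted p = 8.3e-05), so the size of the fold depends on how background is treated. Without both arrays whose labels conflict it was 6.48 (adjusted p = 0.0162). Serping1 has 1 probe on the array, so no second probe could be compared.

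Cd55, the membrane protein that speeds the decay of convertases, read 2.22, 2.94 and 2.47 in controls and 3.69, 3.81 and 3.84 in knockouts. The 3 knockout arrays were close together and lay above each control array. The difference was 1.23 ± 0.21 (SE), 2.35-fold, with an adjusted p of 0.0153, and it was 1.16 within slide 1 and 1.37 within slide 2. Its 3 probes gave 1.23 ± 0.22, 1.05 ± 0.24 and 1.25 ± 0.24 in the fit across all 26746 kept probes, each with groups that did not overlap and each called higher. The call was lost without control 1 (adjusted p = 0.0588), without control 3 (0.0607) and without knockout 2 (0.0525), while the difference remained between 1.07 and 1.22 there. It was also lost without both arrays whose labels conflict (0.163), on slide 1 alone (0.114) and with no filter on dim probes (0.0597), and Cd55 was past the threshold in 14 of 22 alternatives.

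Cd55b, a close paralog that lies next to Cd55 on chromosome 1, was also higher, at 1.17, 1.97 and 1.29 in controls and 2.61, 2.69 and 2.77 in knockouts. The groups did not overlap, and the difference was 1.21 ± 0.24 (adjusted p = 0.0214). Probes for the pair may share transcripts, so the 2 genes may not be separate measurements, although Cd55b enters the counts of other complement genes below. The other Cd55b probe was not kept in the fit and read -3.34, -3.72 and -3.59 in controls and -4.29, -3.80 and -3.36 in knockouts, with groups that overlapped. The call on Cd55b was lost without control 1 (0.0825), control 3 (0.0762), knockout 2 (0.0679) or knockout 3 (0.0515), and without both arrays with conflicting labels (0.194).

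Cd59a, which encodes a membrane-anchored blocker of the attack complex, went the other way. It read -2.59, -3.21 and -3.24 in controls and -5.90, -4.89 and -5.71 in knockouts. All 3 control arrays and 0 of the 3 knockout arrays were well above background, so the knockout level is only a bound. Set against the lowest signal well above background, Cd59a was at least 1.90-fold lower in the knockout (limma on the measured means of -3.01 and -5.50, adjusted p = 0.00566). Cd59a passed the filter through its control arrays alone, so this p-value rests on knockout signals not well above background. On both slides the knockout signals were lower than the controls, but not well above background. The call was lost within slide 1 alone (adjusted p = 0.0512) and under normexp background correction, where the difference shrank to -0.32 (adjusted p = 0.220). The other Cd59a probe was well above background on 0 of 6 arrays, was not tested and overlapped between groups, from -5.45 to -3.39 in controls and from -5.97 to -5.30 in knockouts. The neighbouring paralog Cd59b read -3.17, -1.93 and -1.86 in controls and -3.95, -5.40 and -3.50 in knockouts. Its groups did not overlap either, at -1.96 ± 0.57, but it missed the threshold (adjusted p = 0.0621). Only 2 control arrays and 1 knockout array were well above background for Cd59b, so the size of its difference is uncertain. Probes of the pair may not tell these genes apart.

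Cfi, the protease that cuts C3b and C4b, varied more within groups than between them. It read 3.50, 3.20 and 1.41 in controls and 2.15, 2.82 and 0.79 in knockouts. The array of slide 2 was the lowest of its group on both sides, and the groups overlapped. The difference of -0.78 ± 0.70 did not pass (adjusted p = 0.450), nor did it under any of the 22 alternatives. It was -0.87 within slide 1 and -0.62 within slide 2, and with slide as a block limma gave an adjusted p of 0.0662. With groups from source name and genotype it was -1.73 (limma, unadjusted p = 0.00391, adjusted p = 0.999).

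Among the components, C4b, the thioester protein that the classical and lectin branches deposit on targets, was lower. It read 1.31, 1.60 and 1.05 in controls and -0.47, -0.56 and 0.59 in knockouts. Knockout 3 was nearest to the controls, and the groups did not overlap. The difference was -1.47 ± 0.34 (SE), 2.77-fold lower, with an adjusted p of 0.0341. It was -1.97 within slide 1 and -0.46 within slide 2. The dimmer C4b probe gave -1.06 ± 0.26 (adjusted p = 0.0488 over probes), from -1.61 to -1.36 in controls and from -2.93 to -2.04 in knockouts. The call was lost without control 1 (0.110), control 2 (0.109), control 3 (0.0745) or knockout 2 (0.101), and without both conflicting arrays (0.183), and C4b was past the threshold in 14 of 22 alternatives. C4a, a near-identical copy, was well above background on 1 array and was not tested, and transcripts of one copy may bind probes of the other.

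Cfb, the protease of the alternative convertase, had tight controls at 4.71, 4.69 and 4.67 and knockouts at 3.63, 4.15 and 4.31. All knockout arrays lay below all controls, by -0.66 ± 0.21, but the gene missed the threshold (adjusted p = 0.0783). It passed under normexp correction (0.0396), quantile normalization (0.0489), scaling to the array median (0.0318) and array quality weights (0.0291). Its dimmer probe also separated the groups, at 2.53, 2.49 and 2.63 against 1.36, 1.95 and 2.36, with the same difference of -0.66 (adjusted p = 0.147 over probes).

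C3, the protein at which the branches meet, read 0.57, 1.37 and -0.23 in controls and 1.51, 1.43 and 1.02 in knockouts. The control arrays were widely spread and control 2 lay inside the knockout range. The difference of 0.75 ± 0.40 did not pass (adjusted p = 0.227). The dimmer C3 probe separated the groups, from -0.35 to 0.37 in controls and from 0.46 to 0.59 in knockouts, and did not pass either (0.55 ± 0.22, adjusted p = 0.143 over probes).

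C2, the protease that joins C4b in the classical convertase, read 2.69, 2.98 and 2.71 in controls and 2.73, 2.73 and 3.23 in knockouts. The groups overlapped, at a difference of 0.11 ± 0.20 (adjusted p = 0.726). The sign depended on the arrays: -0.10 within slide 1, 0.52 within slide 2 and -0.06 without knockout 3. C2 and Cfb lie next to each other on chromosome 17 with 0 protein-coding genes between them, and C4b lies 5 genes away. These neighbours thus gave 0.11, -0.66 and -1.47.

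C1qa, a chain of the recognition protein C1q, was well above background on 0 of 6 arrays and was not tested. Its signals of -4.82, -5.44 and -6.07 in controls and -3.77, -4.48 and -4.78 in knockouts have no fold. C1qc too was well above background on 0 arrays, whereas C1qb was so on each of the 6 and gave 0.30 ± 0.28 (adjusted p = 0.479), at -1.09, -1.14 and -0.45 against -0.90, -0.73 and -0.14, with overlapping groups. Over the probes of the 9 genes, 7 of 13 kept were called, 4 higher and 3 lower, beside 10.3% of all 26746 kept probes. Scaled to the array median they split into 3 higher and 4 lower.

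**Figure D2:**
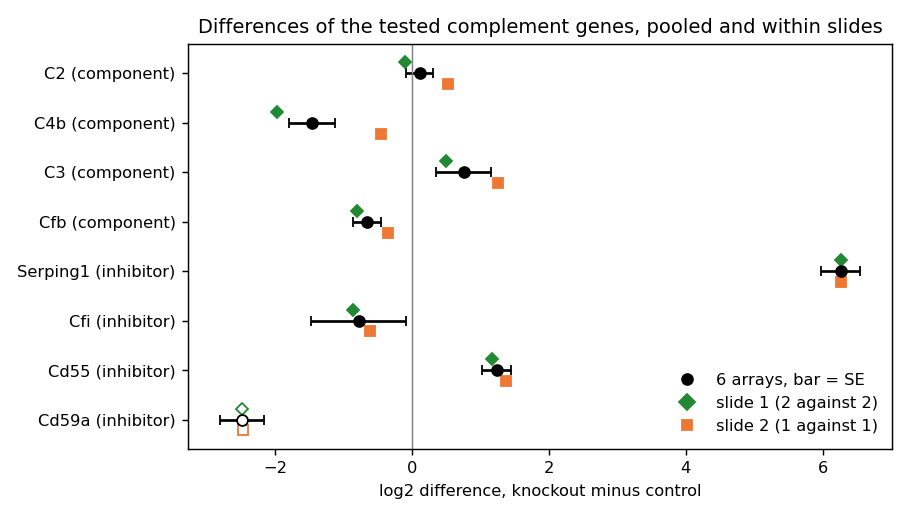
The horizontal axis is the log2 difference, knockout minus control, for each of the 8 tested genes. Black points are the fit over 6 arrays with bars of 1 SE, green diamonds are slide 1 and orange squares are slide 2. The slides nearly coincide for Serping1 (6.26 and 6.28) and lie furthest apart for C4b (-1.97 and -0.46), and hollow points for Cd59a rest on knockout signals not well above background, so that their size is no measured difference.

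The rest of the pathway was read from a list of 53 complement genes by role, the 9 genes among them. Of the other 44, 18 were tested, and 4 of these were higher, 2 lower and 12 not called, with a median difference of 0.48. Beside them, 7.28% of all genes tested were called higher and 7.62% lower. The counts by role that follow include the 9 genes, which these contrasts chose. In classical and lectin activation, 5 of 18 genes were tested, with 1 higher and 2 lower. Without the 9 genes these were 3 of 15, with 1 higher and 1 lower. In the alternative pathway 3 of 4 were tested, with 1 higher, and without the 9 genes 1 of 2, with 1 higher. In the terminal pathway 2 of 7 were tested, C7 and C8g, and 0 were called. Among regulators 12 of 15 were tested, with 3 higher and 2 lower, and without the 9 genes 8 of 11, with 1 higher and 1 lower. Among receptors 4 of 9 were tested, with 1 higher. Scaled to the array median instead, the list of 53 had 5 genes higher and 6 lower, in place of 6 and 4.

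C1ra, a protease that the C1 inhibitor blocks, read -1.42, -1.70 and -1.84 in controls and 0.28, 0.45 and -0.83 in knockouts. Each knockout array was above each control array, by 1.62 ± 0.35 (adjusted p = 0.0288), and knockout 3 was the nearest to the controls. Its partner proteases C1s1 and C1s2 were well above background on 0 arrays. Mbl2, a mannose-binding lectin that starts the lectin branch, read 3.13, 3.32 and 3.74 in controls and 0.91, -0.72 and 1.45 in knockouts. The groups lay well apart, at -2.85 ± 0.54, a 7.20-fold lower level (adjusted p = 0.0194). Without knockout 2 the difference shrank to -2.22 and without both conflicting arrays to -2.04, both past the threshold. C4bp, a soluble regulator that binds C4b and lies near Cd55 on chromosome 1, read -1.57, -1.60 and -2.38 in controls and -3.22, -3.98 and -3.97 in knockouts, 2 of the latter well above background. The difference was -1.87 ± 0.31 (adjusted p = 0.0130), and under normexp correction it shrank to -0.56 and lost the call (0.0539).

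The other 2 genes called higher were dim. Cfp, properdin, the stabilizer of the alternative convertase, read -3.22, -2.61 and -2.85 in controls and -2.03, -2.20 and -1.93 in knockouts (0.84 ± 0.20, adjusted p = 0.0379). The other Cfp probe was not kept and overlapped between groups, at -5.32, -4.86 and -5.56 in controls and -5.82, -2.29 and -4.75 in knockouts. C5ar2, a receptor for C5a, read -4.08, -3.44 and -4.43 in controls, where 1 array was well above background, and -2.65, -2.29 and -1.82 in knockouts (1.73 ± 0.32, adjusted p = 0.0183). For the tested probes of Cfp and C5ar2 the groups did not overlap. Under normexp correction the differences shrank to 0.47 for Cfp and 0.69 for C5ar2. Leaving out both conflicting arrays ended the calls on C1ra (0.216), C4bp (0.0619), Cfp (0.199) and C5ar2 (0.153), and leaving out single arrays ended calls too. For C1ra this held without any control (0.0765 to 0.0937) or knockout 2 (0.0818), and for Mbl2 without any control (0.0609 to 0.0717). For C4bp it held without control 1 (0.0567) or control 2 (0.0559), and for C5ar2 without control 1 (0.0729), control 3 (0.0616) or knockout 2 (0.0552). For Cfp it held without any control (0.0590 to 0.128), knockout 2 (0.0809) or knockout 3 (0.0887).

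Among regulators that were not called, Clu, which binds the forming attack complex, spread from -3.51 to 1.23 over the knockouts alone (0.35 ± 1.08, adjusted p = 0.838). Cr1l, the rodent membrane regulator Crry, was close in both groups, from 4.33 to 4.79 in controls and from 4.36 to 4.84 in knockouts (0.01 ± 0.21, adjusted p = 0.974).

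**Figure D3:**
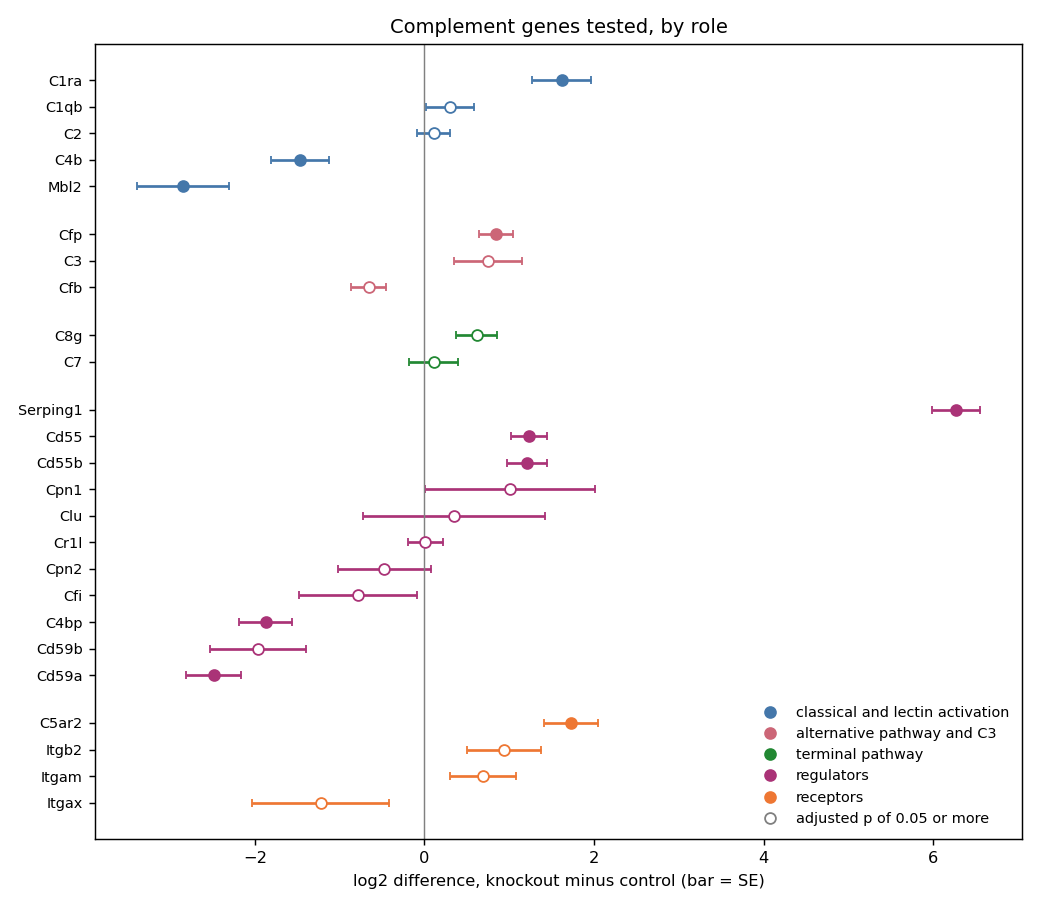
Log2 differences, knockout minus control, of the 26 complement genes tested, 1 of them not drawn, coloured by role, with bars of 1 SE. Filled points passed an adjusted p of 0.05 and hollow points did not. The filled point of Cd59a rests on knockout signals not well above background, so that its size is no measured difference. Serping1 at 6.27 stands alone on the right, and called genes lie on both sides of 0 among classical and lectin genes and among regulators.

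Other values moved in the same samples. Of 22 interferon gamma response genes, among them Irf1, a transcription factor of that response, and the guanylate-binding protein genes, 15 were higher and 0 lower in the knockout. For 18 all knockout arrays lay above all controls, and the median difference was 1.60. Beside these counts, 7.28% of all genes were called higher and 7.62% lower, and the groups lay apart, above or below, for 39.7%. Their summed linear signal, in units of the array's 75th percentile, ranged from 378 to 431 in controls and from 927 to 1299 in knockouts, and without knockout 2 and control 3 there were 10 called higher. Ifng itself was well above background on 0 control arrays and on all 3 knockout arrays, at least 8.68-fold higher. Ifng passed the filter through the knockout arrays alone, so its call (limma, adjusted p = 0.00168) rests on control signals not well above background. The list was set up with earlier results of these data known, and its part in the complement values was not tested.

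Some cell markers moved too, where over all genes 7.28% were called higher and 7.62% lower. Of 13 macrophage genes 9 were tested, with Cd68, Mrc1 and Aif1 higher and Lyz2 lower, and the sum ranged from 70.0 to 132 in controls and from 112 to 206 in knockouts. Without Itgam, whose other probe was well above background on 1 array only, that sum ranged from 18.3 to 23.1 and from 19.6 to 25.5. Aif1 was well above background on 0 control arrays. It passed the filter through the knockout arrays alone and has only a bound, at least 2.24-fold higher. The defining macrophage genes Adgre1 and Fcgr1, and C1qc, were well above background on 0 arrays. Of 10 fibroblast genes 3 were tested, with Acta2 and Thy1 higher, and the sum ranged from 27.5 to 40.1 in controls and from 47.6 to 71.5 in knockouts. Most of it was Acta2, without which the sum, of Vim and Thy1, ranged from 0.844 to 1.12 and from 1.52 to 3.004. Vim was not called, and Thy1 is also in the T cell and intraepithelial lymphocyte list. The brightest probes of Col1a1, Col3a1, Dcn and Pdgfra were well above background on 0 arrays, and these genes were not tested. Of 12 T cell and intraepithelial lymphocyte genes 11 were tested, with Thy1 higher, and the sums overlapped, at 67.9 to 161 and 64.8 to 145. Gzma and Cd4, the brightest of these genes by group mean, weigh most in the sums. Cd4, whose other probe was not kept, gave -1.47 and was not called. Over the list 9 differences were positive and 2 negative. Of 7 endothelial genes 4 were tested, with Esam lower, at sums of 0.445 to 0.489 and 0.467 to 0.519. Esam was well above background on 0 knockout arrays. It passed the filter through the control arrays alone and has only a bound, at least 2.62-fold lower. Of 7 B cell and plasma cell genes 2 were tested and 0 called, at sums of 0.574 to 0.998 and 0.463 to 0.761. Of the 10 epithelial genes Cdx1 was lower and 9 were not called, at sums of 1873 to 2420 and 2134 to 3261. The part of these cells in the complement values was not tested.

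**Figure D4:**
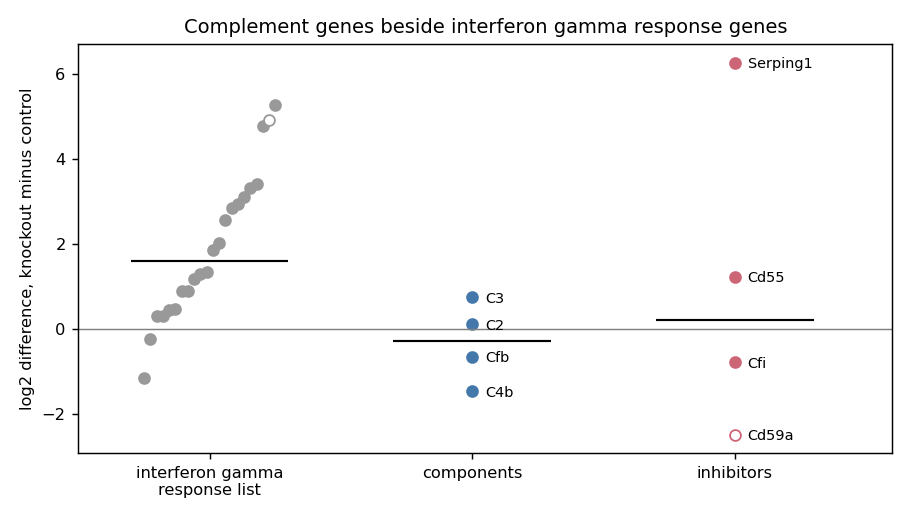
Each point is the log2 difference, knockout minus control, of 1 gene, with a bar at the median of its group. The 22 interferon gamma response genes have a median of 1.60, the 4 tested components lie between -1.47 and 0.75, and Serping1 stands at 6.27. Hollow points, among them Cd59a, rest on a group not well above background and show no measured size.

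The genes most like each complement gene across the 6 arrays, by Pearson's r among genes tested, are given as a description, since the difference between the groups itself enters each r. For Serping1, Vcpkmt was among them, at r = 0.9998. For Cd55 they were Sprr2a3 (0.999) and Map2k3os (0.998), and for Cd59a Nr2c1 (0.998) and Macrod1 (0.995). For Cfb they were the cytochrome P450 genes Cyp2b10 (0.996) and Cyp2b9 (0.995), and for C4b Vwa5b2 (0.994) and Mob3b (0.993). C3 was most like Tmem74b (0.984) and Pet100 (0.977), Cfi most like Atraid (0.978) and Fgl1 (0.974), and C2 most like Agt (0.965) and Sp100 (0.962).

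Among the 8 genes themselves, Serping1 and Cd55 had r = 0.946 over the 6 arrays, and each ran opposite to Cd59a, at -0.958 and -0.934. C4b and Cfb had r = 0.893, while C2 had 0.205 with C4b and 0.0744 with Cfb. The arrays of both groups enter these values, those of Cd59a with knockout signals not well above background, and they are a description with no test.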

How the data were processed

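RNA from isolated crypts, 3 control and 3 knockout samples, was labelled with Cy3, per the labels. The deposited scanner files hold each spot's intensity, already background-subtracted within its array and not scaled between arrays, per the file headers. The headers name Agilent Feature Extraction version 12.0.3.1, whereas the submitters' processing notes name 11.5.1.1. Flags for signal above background, outliers and saturation came with the deposited files. The series table that the authors deposited, an alternative here, has log2 values: set against the scanner files, they are on the 75th percentile scale with each probe centred on its median. Its column medians were 0.196, 0.0606 and -0.322 in controls 1 to 3 and -0.0717, 0.214 and -0.183 in knockouts 1 to 3.

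Control and outlier spots were left out, the spots of a probe averaged, and the log2 processed intensity minus the array's 75th percentile taken. That percentile lay at an intensity between 205 and 295, and the number of arrays limits the precision. Through RefSeq accessions (GRCm38.p6) 33767 of 56605 probes received a symbol. The array's own coordinates are on mm9, and only RefSeq promoter coordinates are given. The filter kept probes flagged above background on 3 or more of the 6 arrays, and the brightest kept probe stood for a gene. limma 3.58.1 (R 4.3.3) was fitted across all genes with a group term alone, followed by eBayes and the Benjamini-Hochberg adjustment, and its steps were tested on simulated data. Groups followed title and description. A bound written "at least N-fold" divides the bright group's mean by the dim group's mean, where each dim array counts at its own signal or the lowest signal flagged above background, whichever was higher.

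The members and lists were chosen with earlier results of these data known. Every one of the 9 genes is named. From the wider list, genes past the threshold and up to 3 others a role by smallest p were eligible, and for each tested gene the 2 with the highest Pearson r, without clone and predicted names. Some genes under this rule are not reported here. Cr1l, Clu and C4a were named after their values were seen. Alternatives were the replicate or slide block, slide 1 alone, the other labels, background correction, scaling, filter, probe choice, variance model, array weights, the deposited table, a threshold of 0.01 and each array left out. Counts of the interferon gamma list under these settings and the macrophage sum without Itgam, the fibroblast sum without Acta2 and the medians with genes at their bound were chosen after seeing the data.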

Additional observations from a re-analysis of the deposited data

How the results depend on the processing

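Counts of calls depended on the arrays used. The 4 complement genes called of 8 became 2 on slide 1 alone, 2 without knockout 2 and control 3, 2 with no filter on dim probes, 2 at an adjusted p under 0.01, and 2 to 4 with single arrays left out. Of the wider list, 10 calls became 4 on slide 1, 3 without the conflicting arrays, 5 with no filter, 2 at the stricter threshold, 6 with probes well above background on all 6 arrays, and 2 to 10 with single arrays left out. The 7 called probes became 2 on slide 1 alone, without the conflicting arrays, with no filter and at the stricter threshold, 6 with probes well above background on all 6 arrays, and 2 to 5 with single arrays left out. With groups from source name and genotype, limma called 0 complement genes, 0 of the wider list, 0 of their probes and 0 of all genes, while 1 complement gene, 3 of the wider list, 1 probe and 207 genes had an unadjusted p under 0.05. Over all genes, 2011 calls became 689 on slide 1, 320 without the conflicting arrays, 697 with no filter, 513 at the stricter threshold, 4766 with array weights, and 638 to 4023 with single arrays left out.

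Signs turned for C2 on slide 1 alone (-0.10), under scaling to the array median (-0.14) and without knockout 3 (-0.058, in a range up to 0.20 with single arrays left out). They turned for C3 (-0.36) and Mbl2 (0.12) with groups from source name and genotype. Scaling to the array median shifted the median of all genes to -0.26 and split the calls into 560 higher and 1389 lower, beside 982 and 1029, and the wider list into 5 higher and 6 lower, beside 6 and 4. The cause of these changes was not tested.

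The replicate number as a block left 4 complement genes, 10 of the wider list and 5 probes called, and 2731 of all genes. Same-numbered samples had residual correlations of 0.246, 0.0797 and 0.352, each the highest for its number, but the labels do not say that numbers pair samples. Control 3 and knockout 3 are also the only arrays of slide 2, so number and slide cannot be told apart for them. The inhibitors' median of 0.22 became -0.52 with the other labels, -0.35 without the conflicting arrays, -0.12 without control 3, -0.0093 without knockout 2, -0.024 under scaling to the array median and 1.23 with probes well above background on all arrays.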
